A study of Mus musculus with 18 samples.

Results

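The genes described here are subunits of NF-kB and the genes that it switches on to restrain itself, measured in mouse leukaemia cells and normal blood progenitors with and without a day of reprogramming factors or of a compound mix. The members are 10 gene symbols named by function: the IkB proteins Nfkbia, Nfkbie and Nfkbiz, the subunits Nfkb1, Nfkb2, Rel and Relb, and the signalling regulators Tnfaip3, Traf1 and Birc3. A member entered when a probe set of the array mapped to its symbol and to no other gene. This held for 9 of the 10, each with 1 probe set, among 22180 genes with such a probe set. Nfkb1 had none and is not analysed here. All 9 passed the filter on dim probe sets and stood among the 16337 genes tested.

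NF-kB is a family of dimeric transcription factors that IkB proteins hold in the cytoplasm. Signals from cytokine receptors and Toll-like receptors activate the IkB kinase complex, which marks the inhibitor for degradation and lets the dimer enter the nucleus. Among the genes it then induces are its own inhibitors and several of its own subunits, so that their transcripts serve as a common readout of pathway activity in blood cells.

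The study sorted GFP+ MLL-AF9 acute myeloid leukaemia (AML) cells from the bone marrow of leukaemic mice and normal Lin- Kit+ Sca1+ cells, called LSK, a fraction that holds stem and early progenitor cells. MLL-AF9 is a fusion oncogene of myeloid leukaemia. All cells of all groups came from 4F mice, in which doxycycline (Dox) induces Oct4, Sox2, Klf4 and c-Myc. There were 6 groups of 3 arrays each: AML Dox, AML compound, AML control, LSK Dox, LSK compound and LSK control. The Dox and compound groups were treated in culture for 24 hours. No time in culture is stated for the control groups, so an effect of treatment and one of culture cannot be told apart. The compound mix held VPA (valproic acid), CHIR, 616452 and TCP. No group without the transgenes received Dox, so Dox and the factors it induces cannot be told apart. Neither the ages and number of mice nor the promoter of the transgenes is stated. By its title each array is a biological replicate, but whether this means another mouse or another culture is not stated. The p-values measure the spread between these arrays, and its source is therefore not known.

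Values are log2 intensities after the authors' normalization, and every difference is a difference of group means on that scale. The LSK compound array numbered 1 stood apart from the other 17, with correlations of 0.638 to 0.672 over all probe sets, whereas the other arrays correlated at 0.979 to 0.989 within groups. It was left out, so LSK compound rests on 2 arrays, and results with it included are given in the closing section. The precision is limited by the number of arrays. The median standard error of a difference between groups of 3 arrays was 0.12 log2. Of 8 genes listed as MLL-AF9 markers, 7 had a probe set, and 6 were higher and 1 lower in AML control than in LSK control. Of 9 markers of LSK cells, 7 had a probe set, Ly6a (Sca1) not among them, and their mean log2 level was 4.85 to 4.93 in AML control and 5.58 to 5.70 in LSK control.

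The sequence around gene starts is shown first because it may hold the kappaB site, the sequence that NF-kB dimers are known to bind. RefSeq windows on GRCm38.p6, reaching from 250 bases before the annotated start to 50 after it, were at hand for 7 members. None was matched for Nfkb1, Nfkbiz or Relb. The kappaB consensus was searched on both strands, and its matches are in capitals below, with overlapping matches run together. The 7 members have 10 windows, since Nfkb2 and Tnfaip3 have several starts. Those printed are 4 that hold matches and, for contrast, that of Traf1, which holds none.

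Nfkbia, chr12:55492598-55492897, minus strand: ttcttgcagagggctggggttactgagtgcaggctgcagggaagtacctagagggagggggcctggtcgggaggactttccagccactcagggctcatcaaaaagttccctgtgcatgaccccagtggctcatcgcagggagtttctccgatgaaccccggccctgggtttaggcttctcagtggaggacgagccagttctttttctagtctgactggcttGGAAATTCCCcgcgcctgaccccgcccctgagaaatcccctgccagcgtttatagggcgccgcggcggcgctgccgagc
Nfkb2, chr19:46304487-46304786, plus strand: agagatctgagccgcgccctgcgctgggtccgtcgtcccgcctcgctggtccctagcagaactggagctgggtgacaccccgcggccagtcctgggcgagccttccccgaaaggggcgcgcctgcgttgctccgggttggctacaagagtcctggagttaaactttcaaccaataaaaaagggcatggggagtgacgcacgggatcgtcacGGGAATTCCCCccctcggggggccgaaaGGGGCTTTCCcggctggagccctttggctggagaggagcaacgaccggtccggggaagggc
Rel, chr11:23770920-23771219, minus strand: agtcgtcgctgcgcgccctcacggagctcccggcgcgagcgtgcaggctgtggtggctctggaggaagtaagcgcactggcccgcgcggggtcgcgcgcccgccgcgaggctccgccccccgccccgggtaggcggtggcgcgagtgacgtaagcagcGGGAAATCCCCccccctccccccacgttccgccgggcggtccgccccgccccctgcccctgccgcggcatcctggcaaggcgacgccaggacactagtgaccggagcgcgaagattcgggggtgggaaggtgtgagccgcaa
Tnfaip3, chr10:19015361-19015660, minus strand: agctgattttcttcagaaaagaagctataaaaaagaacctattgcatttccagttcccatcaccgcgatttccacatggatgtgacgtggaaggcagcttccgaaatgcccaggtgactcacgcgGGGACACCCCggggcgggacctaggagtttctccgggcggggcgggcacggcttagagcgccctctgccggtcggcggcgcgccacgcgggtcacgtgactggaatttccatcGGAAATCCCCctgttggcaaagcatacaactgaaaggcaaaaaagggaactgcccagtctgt
Traf1, chr2:34961723-34962022, minus strand: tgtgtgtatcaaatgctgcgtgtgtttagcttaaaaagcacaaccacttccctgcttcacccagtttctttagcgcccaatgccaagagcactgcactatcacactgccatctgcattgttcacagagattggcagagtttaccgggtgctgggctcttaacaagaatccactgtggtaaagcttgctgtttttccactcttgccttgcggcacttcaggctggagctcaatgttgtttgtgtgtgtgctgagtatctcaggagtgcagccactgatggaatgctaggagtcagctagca

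The Nfkbia window held 1 match, which began 29 bases before the start. The Nfkb2 window held 3, of which 2 overlapped at 39 and 38 bases before the start and the third began 11 bases before it. Rel held 2 overlapping matches at 92 and 91 bases before the start, and Tnfaip3 held matches at 125 and 12 bases before it. The Nfkbie window, not printed, held 1 match 106 bases before the start. Traf1 and Birc3 held no match in their windows, which says only that these letters are not there. At least 1 match was found for 5 of the 7 members and for 9.55% of the 27025 genes in the table. By window the share was 7 of 10 among the members, where 2 of the 3 Nfkb2 windows overlap and share a match, and 8.46% of all 32851 windows. At least 3 matches in 1 window, as in Nfkb2, occurred in 0.186% of all windows. A looser form, GGGNNNNNCC on either strand, which takes in every consensus match, was present in 9 of the members' 10 windows and in 50.8% of all windows.

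**Figure D1:**
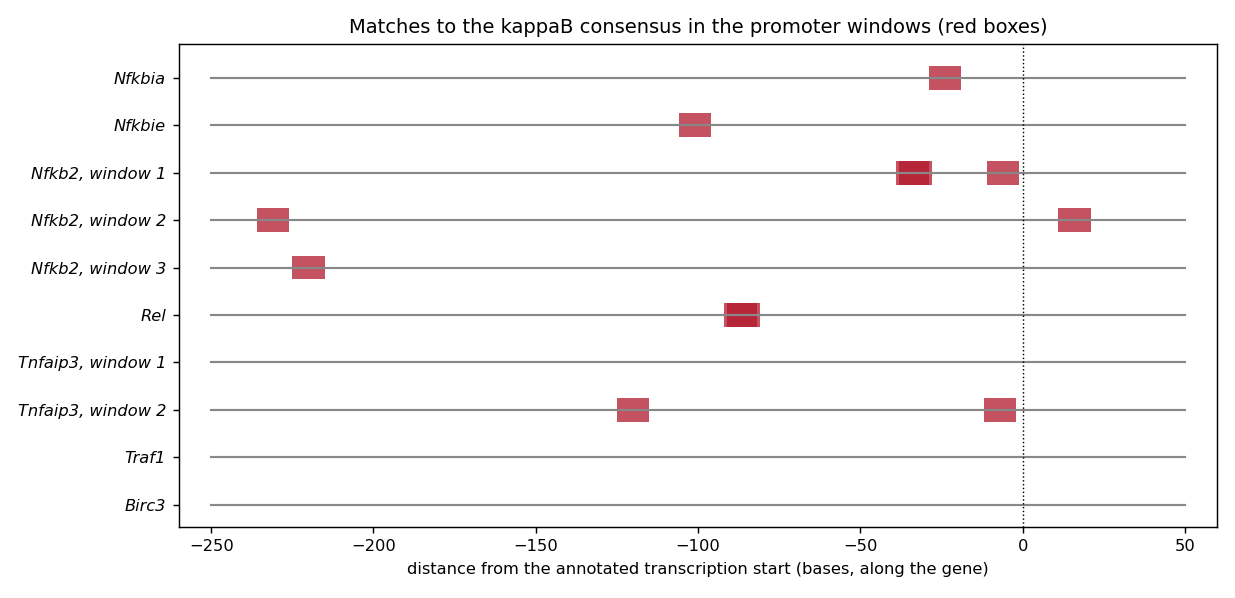
Matches to the kappaB consensus in the RefSeq windows of the members, drawn by distance in bases from the annotated start. Each line is a window from 250 bases before the start to 50 after it, and each box is a match. Matches lie upstream of the start in all windows that hold one except a downstream match of Nfkb2, and Traf1 and Birc3 hold none.

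The largest changes in the members were in LSK cells given the compound mix. All 9 members were higher in LSK compound than in LSK control, and 8 of them by at least 1 log2 unit. Of all genes tested, 34.2% were called by limma at an adjusted p under 0.05, with 14.2% higher and 20% lower, and 5.43% rose by at least 1 log2 unit. Traf1, an adaptor of TNF receptors that NF-kB induces, was 21.1-fold higher. Tnfaip3, which encodes the ubiquitin-editing brake A20, was 11.7-fold higher. The IkB genes and Nfkb2 were 4.90-fold to 7.20-fold higher.

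Among the IkB proteins, Nfkbia encodes the classical inhibitor that NF-kB resynthesizes within each round of activation. Its log2 level was 8.97 and 8.89 in LSK compound, against 6.12, 6.35 and 6.48 in LSK control. Nfkbie, a second cytoplasmic inhibitor, had 6.88 and 6.54 in LSK compound, against 4.28, 4.26 and 4.48 in LSK control. Nfkbiz, a nuclear IkB that works as a cofactor at secondary response genes, had 5.94 and 6.38 in LSK compound, against 3.50, 3.25 and 3.17 in LSK control. In each of the 3 genes both treated arrays lay above every control array. The differences were 2.62 (95% interval 2.38 to 2.85) for Nfkbia, 2.37 (1.98 to 2.76) for Nfkbie and 2.85 (2.5 to 3.19) for Nfkbiz. Their limma adjusted p-values were 6.62e-12, 1.92e-08 and 3.15e-10.

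Among the subunits, Nfkb2 encodes p100, the precursor of p52 and itself an inhibitor of Relb. Its log2 level was 7.33 and 7.32 in LSK compound, against 4.92, 5.05 and 5.13 in LSK control. Rel, the c-Rel subunit prominent in lymphoid and myeloid cells, had 8.90 and 8.69 in LSK compound, against 7.38, 7.28 and 7.49 in LSK control. Relb, the partner of p52 in the alternative pathway, had 4.99 and 4.58 in LSK compound, against 4.40, 4.20 and 4.01 in LSK control. No group overlapped its control, but Relb came nearest. The differences were 2.29 (1.83 to 2.75) for Nfkb2, 1.42 (1.16 to 1.68) for Rel and 0.58 (0.30 to 0.86) for Relb. In that order the limma adjusted p-values were 2.17e-07, 7.55e-08 and 0.00221. Without LSK compound array 2 the Relb difference was 0.37 with an adjusted p of 0.0740.

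Tnfaip3 had log2 levels of 7.22 and 7.72 in LSK compound, against 3.84, 4.18 and 3.76 in LSK control. Traf1 had 7.31 and 7.04 in LSK compound, against 2.77, 2.64 and 2.92 in LSK control. Birc3, the ubiquitin ligase cIAP2 that sits with TRAF proteins at TNF receptors, had 7.63 and 7.56 in LSK compound, against 5.65, 5.88 and 5.90 in LSK control. The treated arrays of all 3 genes lay well above the controls, and Traf1 was close to the filter level of 2.32 to 2.41 in LSK control. The differences were 3.55 (3.06 to 4.04) for Tnfaip3, 4.40 (3.92 to 4.87) for Traf1 and 1.78 (1.54 to 2.03) for Birc3. Their limma adjusted p-values were 1.85e-09, 7.02e-11 and 1.57e-09.

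The median difference was 2.37 over the 9 members and -0.05 over all genes tested. Every LSK compound array lay above every LSK control array for all 9 members and for 21.6% of all genes.

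The LSK compound arrays also differed from the other LSK arrays in sex-linked genes. Xist, transcribed from the inactive X chromosome, was 7.32 to 7.35 in LSK compound and 9.28 to 9.77 in the LSK Dox and LSK control arrays. The Y-linked Eif2s3y was 5.2 to 5.47 in LSK compound and 1.5 to 2.64 on the other 15 arrays, and Kdm5d and Uty were high on the same arrays. Of the lists of cell type markers, the mean log2 level of 12 monocyte and macrophage markers was 5.37 to 5.44 in LSK compound and 4.96 to 5.02 in LSK control, with Mrc1 below the filter level in LSK compound. Of these markers 4 rose and 3 fell, and their median difference was -0.02. The 7 dendritic cell markers averaged 4.91 to 5.10 in LSK compound and 4.40 to 4.57 in LSK control, with Xcr1 below the filter level in both groups, and of 6 tested 2 rose and none fell. The 10 neutrophil markers averaged 4.37 to 4.39 in LSK compound and 5.24 to 5.46 in LSK control, with Ly6g and Retnlg below it in both groups, and of 8 tested 2 rose and 5 fell. The part of these values in the members' differences was not tested. Both kept LSK compound arrays carry the sex-linked difference, so in LSK cells whatever lies behind it cannot be told apart from the compound mix. In bulk RNA, fewer cells of a type and less RNA per cell cannot be told apart.

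**Figure D2:**
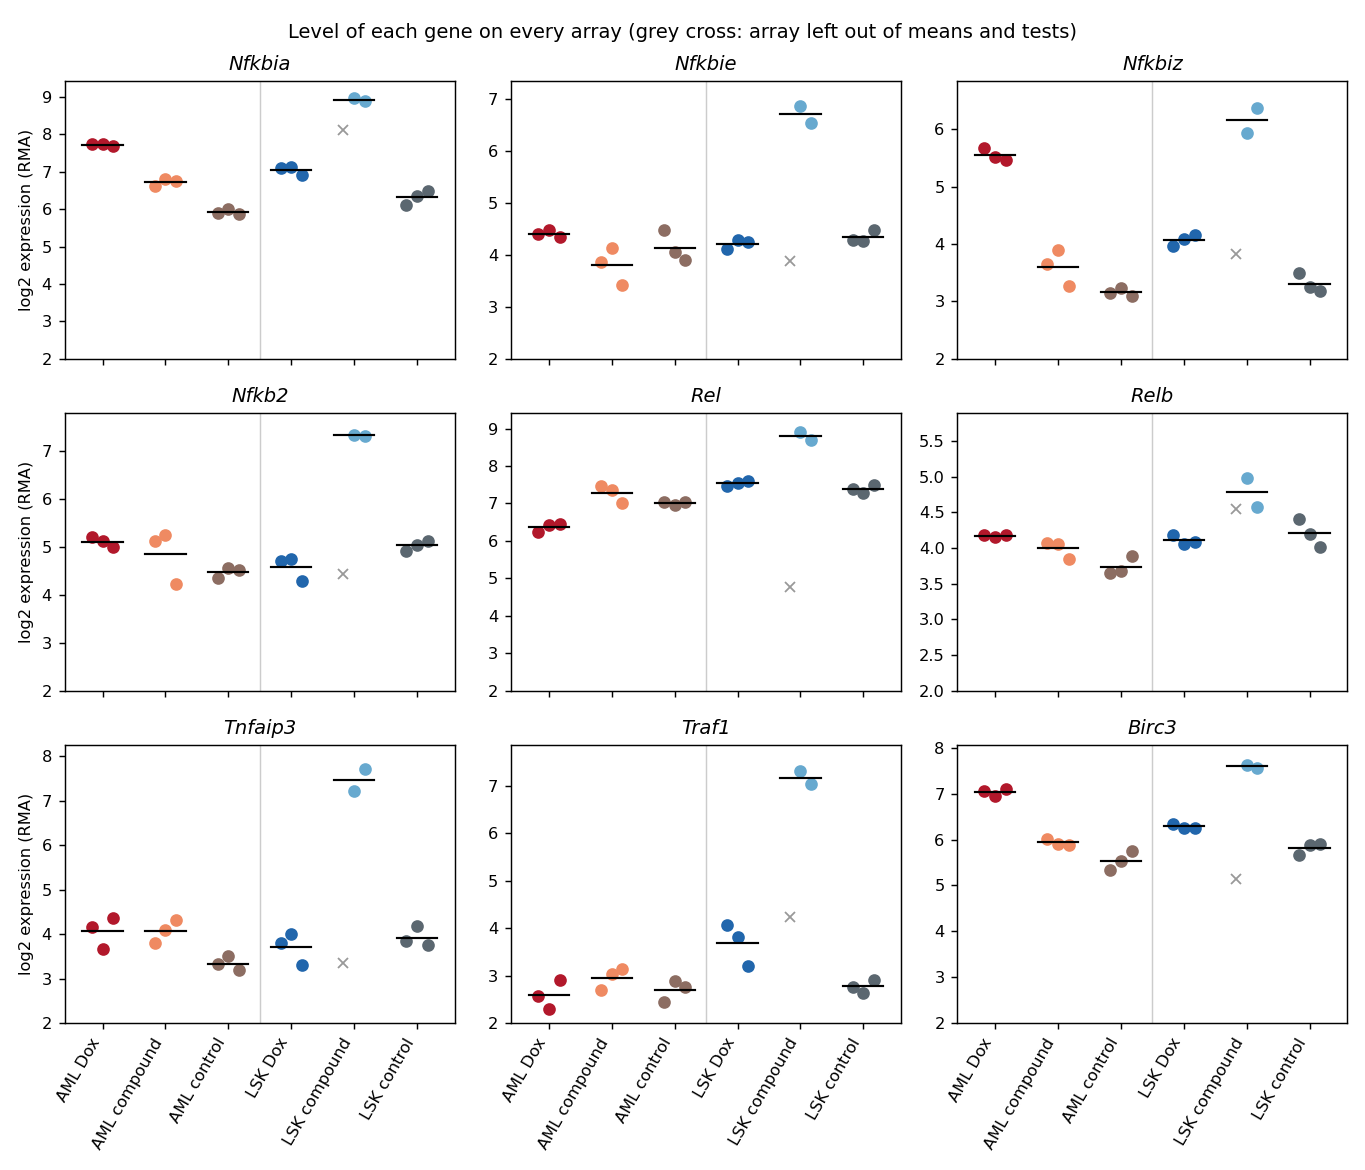
Log2 level of the 9 members on every array, 1 panel per gene, with 1 point per array, a bar at the mean of each group and a grey cross for the array left out. By the mean bars, which leave out the grey cross, LSK compound is the highest group in every panel. In the panel of Rel the 3 AML Dox points lie below all other points except the grey cross.

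In AML cells, 7 of the 9 members changed in AML Dox against AML control, where limma called 48.6% of all genes tested. Nfkbia, Nfkbiz, Nfkb2, Relb, Tnfaip3 and Birc3 rose, and Rel fell. The rises of Nfkbiz, Nfkbia and Birc3 were 5.23-fold, 3.47-fold and 2.82-fold. Nfkbie and Traf1 did not pass the test.

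Nfkbia had log2 levels of 7.74, 7.75 and 7.69 in AML Dox, against 5.91, 6.01 and 5.87 in AML control. Nfkbiz had 5.67, 5.51 and 5.46 in AML Dox, against 3.15, 3.23 and 3.10 in AML control. Birc3 had 7.07, 6.94 and 7.10 in AML Dox, against 5.34, 5.54 and 5.75 in AML control. All Dox arrays of these 3 genes lay above all controls, with gaps wider than the spread within either group. The differences were 1.79 (1.59 to 2.0) for Nfkbia, 2.39 (2.08 to 2.69) for Nfkbiz and 1.49 (1.28 to 1.71) for Birc3. In that order the limma adjusted p-values were 6e-11, 2.34e-10 and 1.18e-09.

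The subunits were split. Rel had log2 levels of 6.23, 6.43 and 6.44 in AML Dox, against 7.05, 6.96 and 7.03 in AML control. Nfkb2 had 5.21, 5.12 and 4.99 in AML Dox, against 4.34, 4.57 and 4.51 in AML control. Relb had 4.19, 4.16 and 4.18 in AML Dox, against 3.66, 3.68 and 3.89 in AML control. Every Dox array was lower than every control for Rel and higher for Nfkb2 and Relb. The differences were -0.65 (-0.88 to -0.41) for Rel, 0.63 (0.22 to 1.04) for Nfkb2 and 0.43 (0.18 to 0.68) for Relb. Their limma adjusted p-values were 7.76e-05, 0.0115 and 0.00501.

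Tnfaip3 had log2 levels of 4.17, 3.67 and 4.37 in AML Dox, against 3.33, 3.50 and 3.19 in AML control, a difference of 0.73 (0.29 to 1.17) with a limma adjusted p of 0.0068. All Dox arrays lay above all controls, the second one only narrowly. Nfkbie differed by 0.27 (-0.08 to 0.62), with a limma adjusted p of 0.214, and without AML control array 1 it passed the test with 0.0417. Traf1 differed by -0.10 (-0.52 to 0.33), with a limma adjusted p of 0.742, and stayed near the filter level on all 6 arrays, at 2.30 to 2.92.

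The share of members called is to be read against a wide background. Of all genes tested, 23% were higher and 25.6% lower, and 8.83% were higher by at least 1 log2 unit, as were 3 of the 9 members. The Dox arrays lay wholly above the controls in 6 members and in 26.3% of all genes, and wholly below them in Rel and in 29.4% of all genes. The median difference was 0.63 over the members and -0.01 over all genes. The 7 LSK markers averaged 3.72 to 3.79 in AML Dox and 4.85 to 4.93 in AML control, with 3 of the 6 tested higher and 3 lower. Kit and Cd34, which mark immature cells and were singled out after their values were seen, were among the 3 lower. Kit had log2 levels of 3.44, 3.0 and 3.89 in AML Dox, against 6.22, 6.16 and 6.28 in AML control. Cd34 had 3.29, 3.86 and 3.17 in AML Dox, against 8.74, 8.64 and 8.63 in AML control. The 3 higher were Mecom, Hlf and Procr. Mecom had 5.90, 6.07 and 5.77 in AML Dox, against 5.33, 5.40 and 5.18 in AML control. Hlf had 3.25, 3.10 and 3.33 in AML Dox, against 2.73, 2.94 and 2.76 in AML control. Procr had 3.56, 3.48 and 3.33 in AML Dox, against 3.04, 3.01 and 2.98 in AML control. All 7 MLL-AF9 markers rose, with means of 7.77 to 7.85 in AML Dox and 6.84 to 6.95 in AML control and a median difference of 0.96. The 12 monocyte and macrophage markers averaged 4.08 to 4.14 in AML Dox and 4.28 to 4.38 in AML control, with 3 higher, 3 lower and a median difference of -0.03. Their part in the members' differences was not tested.

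**Figure D3:**
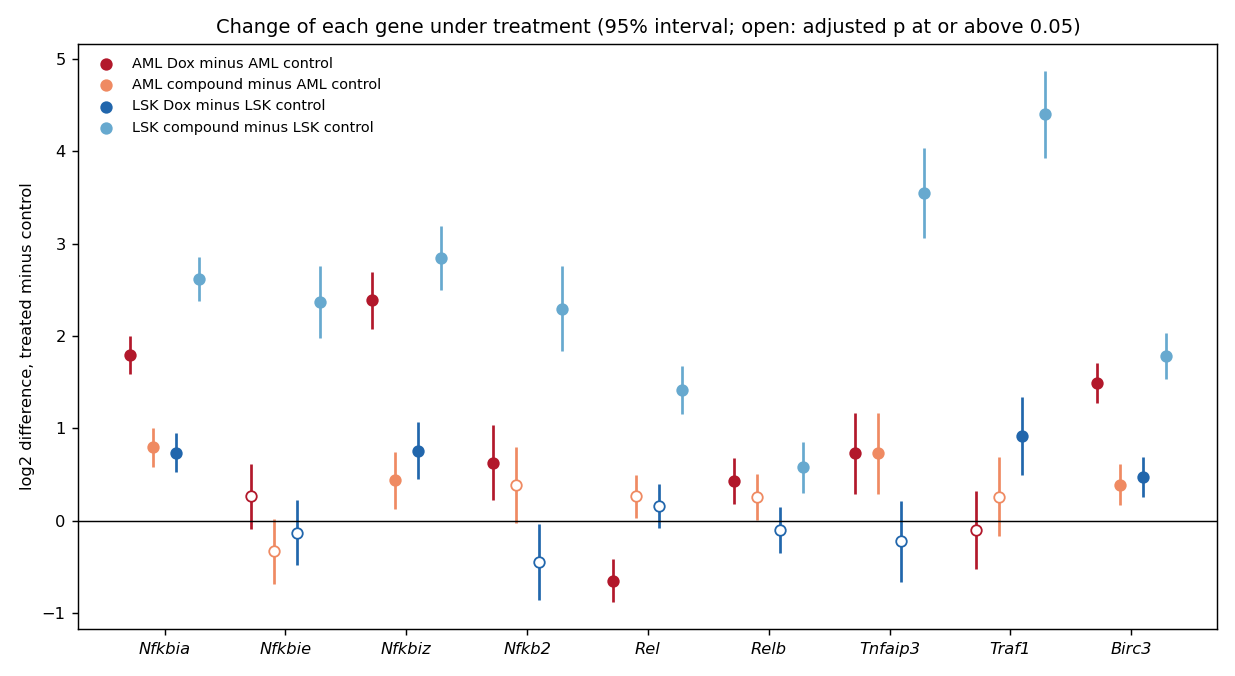
Difference of group means on the log2 scale for each member in the 4 treatment comparisons, with 95% intervals from limma. Filled points passed the test. All 9 members lie above 0 in LSK compound, and Rel lies below 0 in AML Dox.

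In AML compound against AML control, 4 members rose and none fell, where limma called 32% of all genes tested. The 4 were Nfkbia, Tnfaip3, Nfkbiz and Birc3, and none of them rose by as much as 1 log2 unit, as 3.42% of all genes did. Nfkbia had log2 levels of 6.62, 6.80 and 6.76 in AML compound, against 5.91, 6.01 and 5.87 in AML control. Tnfaip3 had 3.79, 4.10 and 4.32 in AML compound, against 3.33, 3.50 and 3.19 in AML control. All treated arrays of both genes lay above all controls.

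Birc3 had 6.02, 5.90 and 5.89 in AML compound, against 5.34, 5.54 and 5.75 in AML control. Nfkbiz had 3.65, 3.89 and 3.26 in AML compound, against 3.15, 3.23 and 3.10 in AML control. These groups did not overlap either, as the treated arrays lay wholly above the controls in these 4 members and in 17.1% of all genes, although the third treated array of Nfkbiz lay just above the controls. The differences were 0.79 (0.59 to 1.0) for Nfkbia, 0.73 (0.29 to 1.17) for Tnfaip3, 0.39 (0.18 to 0.61) for Birc3 and 0.44 (0.13 to 0.75) for Nfkbiz. In that order the limma adjusted p-values were 8.43e-06, 0.0113, 0.00681 and 0.0279.

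Nfkb2 had log2 levels of 5.11, 5.24 and 4.23 in AML compound, against 4.34, 4.57 and 4.51 in AML control. The third treated array was below all controls and the other two were above them, and the difference of 0.39 did not pass the test (limma adjusted p = 0.152). Rel, with a difference of 0.26, missed it as well (limma adjusted p = 0.0812). Without AML compound array 3, limma gave 0.70 with an adjusted p of 0.000598 for Nfkb2 and 0.39 with 0.0078 for Rel, while Tnfaip3 lost its call (0.0583). Without AML control array 1 or 3, or AML compound array 1 or 2, Nfkbiz lost its call, with adjusted p-values of 0.0665 to 0.148. Relb differed by 0.26, Traf1 by 0.26 and Nfkbie by -0.33, with limma adjusted p-values of 0.117, 0.372 and 0.152, and Nfkbie passed without AML compound array 2 (-0.49, limma adjusted p = 0.0333). Of all genes tested 12.8% were higher and 19.2% lower, and the median difference was 0.39 over the members and -0.03 over all genes.

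Markers of monocytes and macrophages were higher in the same arrays. Of 12 with a probe set, 10 rose and none fell in AML compound, and their mean log2 level was 5.66 to 5.81 in AML compound and 4.28 to 4.38 in AML control, with Mrc1 below the filter level in AML control. The 7 LSK markers averaged 5.39 to 5.42 in AML compound and 4.85 to 4.93 in AML control, with 5 of the 6 tested higher and none lower. The part of these changes in the members' differences was not tested.

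In LSK Dox against LSK control, 4 members rose, Nfkbia, Nfkbiz, Birc3 and Traf1, where limma called 19.1% of all genes tested. Nfkbia had log2 levels of 7.11, 7.14 and 6.91 in LSK Dox, against 6.12, 6.35 and 6.48 in LSK control. Nfkbiz had 3.96, 4.08 and 4.16 in LSK Dox, against 3.50, 3.25 and 3.17 in LSK control. All Dox arrays of both genes lay above all controls.

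Birc3 had 6.35, 6.25 and 6.25 in LSK Dox, against 5.65, 5.88 and 5.90 in LSK control. Traf1 had 4.06, 3.82 and 3.19 in LSK Dox, against 2.77, 2.64 and 2.92 in LSK control. The groups did not overlap, and the third Dox array of Traf1 was the nearest to its controls. The folds were 1.67 for Nfkbia, 1.69 for Nfkbiz, 1.39 for Birc3 and 1.89 for Traf1. The limma adjusted p-values were 3.56e-05, 0.0012, 0.00326 and 0.00343.

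Nfkb2 had log2 levels of 4.71, 4.76 and 4.30 in LSK Dox, against 4.92, 5.05 and 5.13 in LSK control. Every Dox array was lower, yet the difference of -0.44 (-0.85 to -0.03) did not pass the test, with a limma adjusted p of 0.133. Rel, Relb, Nfkbie and Tnfaip3 differed by 0.16, -0.10, -0.13 and -0.22, with limma adjusted p-values of 0.372, 0.648, 0.672 and 0.538. Of all genes tested 9.21% were higher and 9.93% lower, and 2.46% rose by at least 1 log2 unit, as no member did. The Dox arrays lay wholly above the controls in 4 members and 14.6% of all genes, and wholly below them in Nfkb2 and 21.5% of all genes. The median difference was 0.16 over the members and -0.05 over all genes. Several marker lists moved with LSK Dox. The 6 mast cell and basophil markers averaged 2.76 to 2.93 in LSK Dox and 4.01 to 4.15 in LSK control, with 3 of the 5 tested lower and Fcer1a below the filter level in LSK Dox. The 10 neutrophil markers averaged 4.81 to 4.83 in LSK Dox and 5.24 to 5.46 in LSK control, with 5 of 8 tested lower and none higher. The 12 monocyte and macrophage markers averaged 4.76 to 4.90 in LSK Dox and 4.96 to 5.02 in LSK control, with 2 higher and 4 lower. The 7 LSK markers averaged 6.02 to 6.07 in LSK Dox and 5.58 to 5.70 in LSK control, with 3 of the 6 tested higher and 1 lower. The part of these values in the members' differences was not tested.

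The responses of the 2 cell types were then compared directly, as the AML difference minus the LSK difference in the same limma fit. For Dox, 8 of the 9 members differed, against 40.1% of all genes tested, 18.6% with the higher response in AML cells and 21.5% with the lower. The AML response was the higher one for Nfkbiz by 1.63, Nfkb2 by 1.08, Nfkbia by 1.06, Birc3 by 1.02, Tnfaip3 by 0.95 and Relb by 0.53. It was the lower one for Traf1 by -1.02 and for Rel by -0.81. Their limma adjusted p-values lay between 5.07e-06 and 0.0165. The call of Relb was lost without LSK control array 1 (0.0516). Nfkbie, at 0.39, did not pass (limma adjusted p = 0.211). Traf1 rose under Dox in LSK cells and did not pass the test in AML cells, whereas Rel fell in AML cells and did not pass in LSK cells.

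For the compound mix, 8 members differed between the cell types, against 17.1% of all genes (8.69% higher and 8.37% lower in AML cells), and all 8 had the higher response in LSK cells. The AML response minus the LSK response was -4.13 for Traf1, -2.81 for Tnfaip3, -2.70 for Nfkbie, -2.41 for Nfkbiz, -1.91 for Nfkb2, -1.82 for Nfkbia, -1.39 for Birc3 and -1.15 for Rel. Their limma adjusted p-values lay between 2.28e-08 and 0.000135. Relb, at -0.32 (-0.70 to 0.05), did not pass (limma adjusted p = 0.262). The sex-linked genes described above set the LSK compound arrays apart from every array they are compared with.

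**Figure D4:**
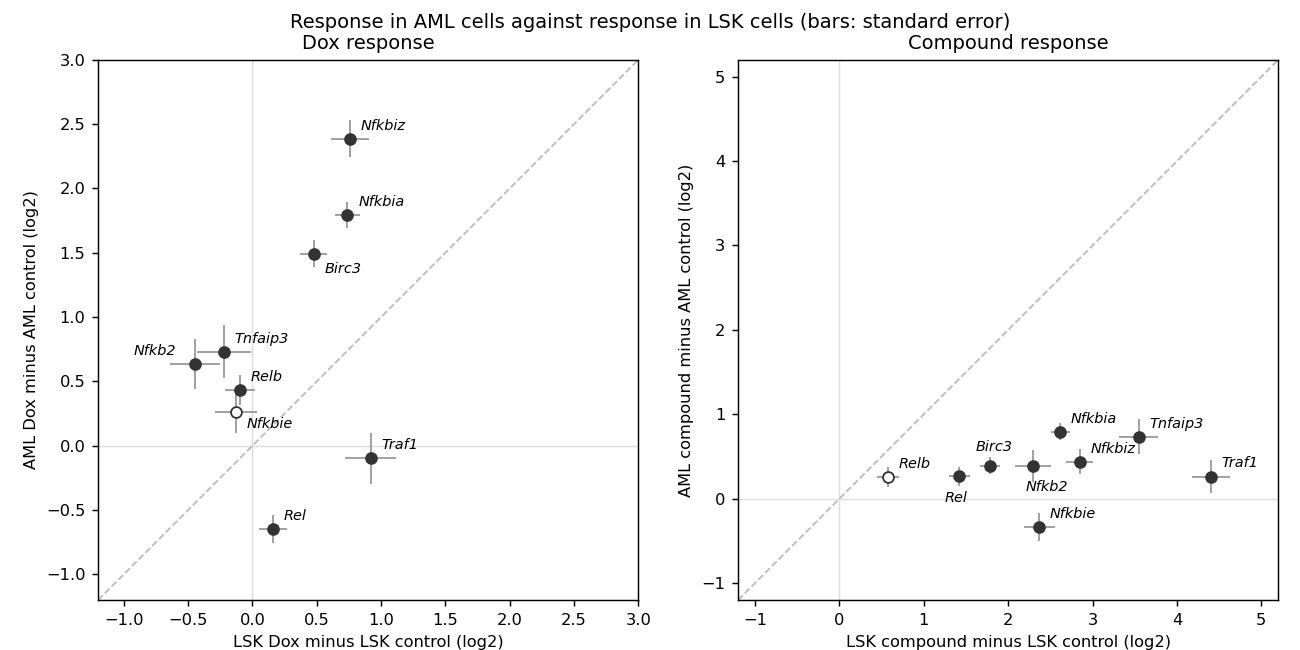
Response in AML cells against response in LSK cells for each member, in log2 units, for Dox and for the compound mix, with standard errors as bars and the dashed line marking equal responses. Filled points passed the test of the difference. All compound points lie on the LSK side of the line, and all Dox points but Traf1 and Rel lie on the AML side.

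Dox was set against the compound mix within each cell type. In AML cells, AML Dox exceeded AML compound by 1.95 for Nfkbiz, 1.10 for Birc3, 1.0 for Nfkbia and 0.60 for Nfkbie, and Rel was lower by -0.91. These 5 of 9 passed the limma test, with adjusted p-values between 3.93e-09 and 0.00605, against 47.7% of all genes, 23% higher and 24.7% lower. Tnfaip3 was higher than in AML control in both treated groups, and the difference between them was -0.00 (-0.44 to 0.44), with a limma adjusted p of 0.994. In LSK cells all 9 members were lower in LSK Dox than in LSK compound, where limma called 32.3% of all genes, 14.3% lower and 18% higher. The differences lay between -3.77 for Tnfaip3 and -0.68 for Relb, with limma adjusted p-values between 4.33e-10 and 0.000611. The treated arrays set against each other here are the same as in the comparisons above.

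Without treatment, 5 members were lower in AML control than in LSK control: Tnfaip3, Nfkb2, Relb, Nfkbia and Rel. Of all genes tested 29.6% were called, 14.2% as lower and 15.4% as higher. The differences were -0.59 for Tnfaip3, -0.56 for Nfkb2, -0.46 for Relb, -0.38 for Nfkbia and -0.37 for Rel. Every AML control array lay below every LSK control array in these 5 genes, as in 20.6% of all genes. The limma adjusted p-values were 0.0419, 0.0396, 0.006, 0.00639 and 0.018. The count fell to 3 or 4 when any 1 of the 6 arrays was left out. Nfkb2 lost its call without each of them (limma adjusted p = 0.0554 to 0.125), Tnfaip3 without AML control array 1 or 3 or LSK control array 1 or 2 (0.0661 to 0.167), and Rel without AML control array 2 or LSK control array 3 (0.0617 and 0.0777). Birc3, Nfkbie, Nfkbiz and Traf1 differed by -0.27, -0.20, -0.15 and -0.08, with limma adjusted p-values of 0.0616, 0.44, 0.521 and 0.828. Birc3 passed without AML control array 3 (limma adjusted p = 0.0148) or LSK control array 1 (0.0295).

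Markers and sex-linked genes differed between the same arrays. The 10 neutrophil markers averaged 2.87 to 2.97 in AML control and 5.24 to 5.46 in LSK control, with 7 of 8 tested lower, none higher and a median difference of -2.87, and S100a9, Ly6g, Camp and Retnlg lay below the filter level in AML control. The 12 monocyte and macrophage markers averaged 4.28 to 4.38 in AML control and 4.96 to 5.02 in LSK control, with 7 lower, 1 higher and a median difference of -0.69. Xist was 2.34 to 3.01 on the 9 AML arrays and 9.28 to 9.77 on the LSK Dox and LSK control arrays. The part of these values in the members' differences was not tested.

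Across the 6 groups, LSK compound had the highest mean of every member, and its arrays did not overlap the next group. The share of all genes tested with such an order of groups was not counted, so how usual it is cannot be told. Nfkbia was the most finely graded, with 6 groups that all stood apart: 8.93 in LSK compound, 7.72 in AML Dox, 7.05 in LSK Dox, 6.73 in AML compound, 6.31 in LSK control and 5.93 in AML control. Birc3 and Nfkbiz shared the same order, but their 3 lowest groups overlapped in sequence. For Nfkbie, Nfkb2, Relb and Tnfaip3 every neighbouring pair of groups below LSK compound overlapped. Traf1 separated LSK compound at 7.17 and LSK Dox at 3.69 from the other 4 groups, which lay at 2.60 to 2.96. Rel stood apart at both ends, with 8.80 in LSK compound and 6.37 in AML Dox, and its other 4 groups overlapped in sequence.

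Over the 17 arrays, Nfkbia, Nfkbiz and Birc3 varied together, with Pearson r of 0.97 for Nfkbia with Birc3, 0.97 for Nfkbiz with Birc3 and 0.94 for Nfkbia with Nfkbiz. Nfkb2 went with Tnfaip3 (0.94) and Nfkbie (0.93). The lowest values were those of Rel with Nfkbiz (0.22), Birc3 (0.30) and Nfkbia (0.43). With the other members Rel ranged from 0.64 with Relb to 0.86 with Traf1. The most alike genes were sought among those tested, without predicted genes, genes named by clone or accession, small RNA genes and antigen receptor segments. The profile most like that of Nfkbia was Parp12 (0.985), and that of Tnfaip3 was Nrp2 (0.975). For Traf1 it was Gimap4 (0.983) and for Rel Dennd4a (0.980). The arrays share their groups, and the pair of high LSK compound arrays weighs on each of these values, which are descriptions.

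The rest of the pathway was read from 5 lists: other NF-kB and IkB genes, kinases and adaptors, other brakes, receptors and ligands, and other target genes. In LSK compound against LSK control, where 14.2% of all genes rose and 20% fell, 26 of 33 tested target genes rose and 1 fell, with a median difference of 2.62. Cxcl10, a chemokine, was higher by 7.81, and Ptgs2, the inducible cyclooxygenase, by 7.50 (limma adjusted p = 9.97e-16 each). Cxcl10 had log2 levels of 11.20 and 11.26 in LSK compound, against 3.64, 3.28 and 3.35 in LSK control. Of 23 tested receptors and ligands, 15 rose and none fell, with a median of 1.19.

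The cytokine gene Il1b was among the ligands, with log2 levels of 11.06 and 10.95 in LSK compound, against 3.69, 2.92 and 3.09 in LSK control, a difference of 7.77 (limma adjusted p = 1.15e-14). Of 28 kinases and adaptors, 9 rose and 2 fell, with Ikbke, an IkB kinase relative, higher by 3.92 (limma adjusted p = 2.93e-12). Of 14 other brakes, 7 rose and 3 fell, with the A20-binding Tnip3 higher by 3.02 (limma adjusted p = 2.88e-09). Of 6 other family genes, 3 rose, Bcl3 by 1.89, Nfkbib by 0.99 and Nfkbid by 0.59, and Nkrf, a repressor, fell by 0.69 (limma adjusted p between 1.08e-07 and 0.00186). Rela, the main activating subunit, was 8.34 and 8.43 in LSK compound, against 8.13, 8.17 and 8.24 in LSK control.

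The counts in AML Dox stand against 23% of all genes that rose and 25.6% that fell. Of 33 target genes, 8 rose and 11 fell against AML control, with a median difference of -0.01. Vcam1, an adhesion molecule, was higher by 5.41 (limma adjusted p = 9.41e-16), and Gadd45b, a stress-induced gene, fell by 2.73 (limma adjusted p = 2.19e-13). Of 6 other family genes, 5 fell and none rose, with a median of -0.64. Among them were Nkrf by -2.31, Nfkbib by -0.74 and Rela by -0.29 (limma adjusted p = 2.22e-11, 1.16e-05 and 0.00327). The ligand gene Tnf had log2 levels of 3.47, 3.55 and 3.83 in AML Dox, against 7.16, 7.22 and 6.92 in AML control, a difference of -3.48 (limma adjusted p = 6.81e-14). Of 28 kinases and adaptors, 8 rose and 9 fell, shares near those of all genes, with Birc2, the close relative of Birc3, higher by 1.42 (limma adjusted p = 1.29e-08). Of 14 other brakes, 6 rose and 3 fell. Otud7b was higher by 1.44, and Irak3, a brake on Toll-like receptor signalling, was lower by -2.45 (limma adjusted p = 8.25e-10 and 9.49e-13). Of 23 receptors and ligands, 4 rose and 5 fell.

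In AML compound against AML control, where 12.8% of all genes rose and 19.2% fell, 21 of 33 target genes rose and 4 fell, with a median of 0.68. Ccl3, a chemokine, was higher by 5.56 (limma adjusted p = 6.67e-13), and Csf1, the macrophage growth factor, by 3.07 (1.93e-11). Of 23 receptors and ligands, 6 rose and none fell, with the co-receptor Cd14 higher by 3.48 and Tlr4 by 1.72 (limma adjusted p = 1.11e-10 and 5.34e-09). Of 28 kinases and adaptors 2 rose and 9 fell, Ikbke being higher by 1.88 and the adaptor Myd88 lower by -0.89 (limma adjusted p = 1.86e-08 and 0.000346). Of 14 brakes 4 rose and 6 fell, and of 6 family genes 1 rose and 2 fell. The 2 that fell were Nkrf by -0.88 and Rela by -0.42 (limma adjusted p = 1.94e-05 and 0.00029). Cd14 and Tlr4 are also borne by monocytes, whose markers moved in these arrays as given above.

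In LSK Dox against LSK control, where 9.21% of all genes rose and 9.93% fell, 3 of 33 target genes rose and 9 fell, with a median of -0.21. Plaur, the urokinase receptor, was higher by 1.5, Ier3, an early response gene, by 1.26, and the chemokine Ccl5 lower by -0.84 (limma adjusted p = 1.94e-07, 7.95e-07 and 5.35e-06). Of 23 receptors and ligands 5 rose and 4 fell, with the interleukin-1 receptor Il1r1 lower by -1.08 (limma adjusted p = 7.98e-06). Of 28 kinases and adaptors 4 rose and 1 fell, and of 14 brakes 2 rose, Sigirr by 0.57 and Otud7b by 0.47 (limma adjusted p = 8.33e-05 and 0.00236). Of 6 other family genes 1 rose and 1 fell, Bcl3 by 0.84 and Nkrf by -0.41 (limma adjusted p = 0.00072 and 0.0197).

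In AML control against LSK control, where 14.2% of all genes were lower and 15.4% higher, 11 of 23 receptors and ligands were lower and 4 higher, with Il1r1 lower by -4.31 and Tlr4 higher by 1.32 (limma adjusted p = 1.02e-13 and 1.08e-07). Of 33 target genes 9 were lower and 5 higher, with Ccl3 lower by -3.44 (limma adjusted p = 2.03e-10). Of 14 brakes, 1 was lower, Tnip3 by -3.14 (limma adjusted p = 5.8e-10), and 1 was higher.

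**Figure D5:**
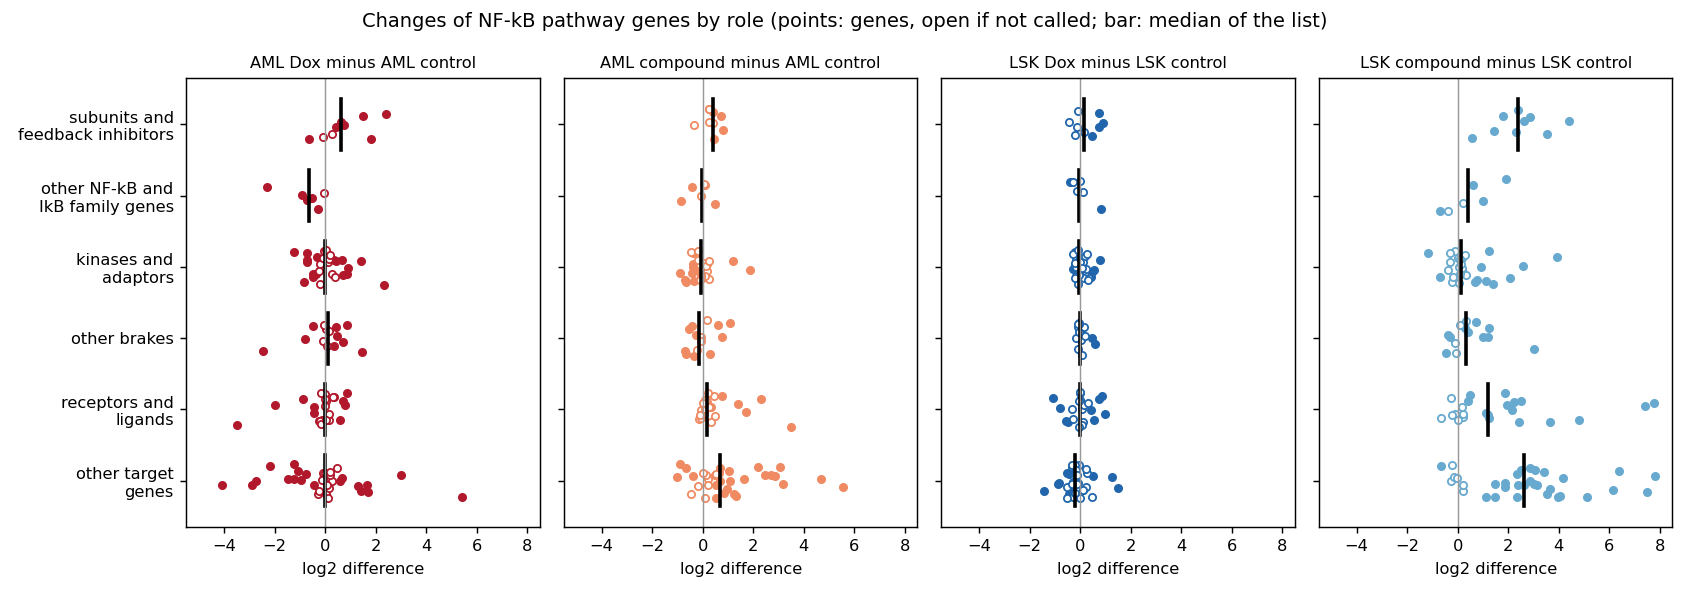
Log2 differences of the members and of the genes in the 5 pathway lists, 1 point per gene, in the 4 treatment comparisons. The bar is the median of a list and open points did not pass the test. In LSK compound the members and the target genes lie highest, with medians of 2.37 and 2.62, while in AML Dox the median of the target genes is -0.01.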

How the data were processed

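Gene expression was measured on whole-transcript microarrays, and the deposited values are log2 levels per probe set that the authors normalized with RMA, per the submitters' processing notes. RMA corrects background and equalizes distributions over arrays, which compresses changes of dim probe sets. Of 41345 probe sets, 23521 mapped to 1 gene, 1814 to several and 16010 were not listed in the annotation used. For each gene the probe set with the highest mean was kept. Genes above the 40th percentile of an array on at least 3 arrays were tested. Group means over 17 arrays were fitted in limma 3.58.1 (R 4.3.3), with 11 residual degrees of freedom, and p-values were adjusted by Benjamini-Hochberg over all 16337 genes tested, with a threshold of 0.05. The array numbered 1 of LSK compound was left out. The same code was tested on simulated data. Alternatives are given in the closing section. The members and the pathway and marker lists were chosen with earlier results of these data known. Named pathway genes are among the up to 4 of each list with the smallest p in a comparison. The genes most alike were those with the highest Pearson r to a member. Predicted genes, genes named by clone or accession, small RNA genes and antigen receptor segments were left out of that search.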

Additional observations from a re-analysis of the deposited data

Results flagged for a closer look

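Both treatments gave responses that differed between AML and LSK cells in a direct limma test. For Dox, the AML response minus the LSK response was 1.06 for Nfkbia, 1.63 for Nfkbiz, 1.08 for Nfkb2, -0.81 for Rel, 0.53 for Relb, 0.95 for Tnfaip3, -1.02 for Traf1 and 1.02 for Birc3. For the compound mix the same difference was -1.82 for Nfkbia, -2.70 for Nfkbie, -2.41 for Nfkbiz, -1.91 for Nfkb2, -1.15 for Rel, -2.81 for Tnfaip3, -4.13 for Traf1 and -1.39 for Birc3. These are log2 values.

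On the LSK compound array that was left out, 4 of the 9 members lay above all 3 LSK control arrays, with log2 levels of 8.13 for Nfkbia, 3.82 for Nfkbiz, 4.55 for Relb and 4.23 for Traf1. The median of that array over all probe sets was 3.24, against 2.65 to 2.75 on the other 17, so its levels are not on a like scale. On it 45.7% of all genes tested lay above the 3 controls. The other members did not, and Il1b and Cxcl10 had 3.10 and 3.94 on it, against 10.95 to 11.06 and 11.20 to 11.26 on the LSK compound arrays that were kept.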

How the results depend on the processing

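The choice that moved the most was the LSK compound array numbered 1. With all 18 arrays, the members called were 4 in AML Dox, 1 in AML compound, 1 in LSK Dox and 4 in LSK compound against their controls, 0 in AML control against LSK control, 2 in AML Dox and 5 in LSK Dox against the compound mix, and 1 and 2 in the comparisons of Dox and compound responses between cell types. Rel then differed by 0.083 (limma adjusted p = 0.933) in LSK Dox against LSK compound and by 0.19 (0.92) in the compound response between cell types, the reverse of the signs above. In that fit limma called, in the order of the member counts, 4240, 1064, 602, 2925, 1433, 3888, 2547, 2227 and 520 of 16583 genes. With 17 arrays it called 2786 to 7935 genes per comparison. Array quality weights on 18 arrays, whose estimation stopped before converging, gave 7 members called in AML compound, where limma called 5816 of 16583 genes. The 17 arrays gave 5232 genes there. These weights were 20.61 for LSK compound array 2, 0.2752 for array 3 and 0.0063 for array 1. They left the LSK compound mean resting almost wholly on array 2. They gave 8685 genes in LSK compound against LSK control, 8641 in LSK Dox against LSK compound and 4784 in the compound response between cell types, where 17 arrays gave 5590, 5283 and 2786. Leaving out 1 array of a group of 3 at a time gave 7 to 8 members in AML Dox, with 7458 to 7522 genes called. AML compound had 3 to 5 (4560 to 4987 genes), LSK Dox 4 (2423 to 2551) and LSK compound 9 (5089 to 5152). AML control against LSK control had 3 to 4 (4174 to 4319). Dox against the compound mix had 5 in AML cells (7311 to 7607) and 9 in LSK cells (4732 to 4815). The responses between cell types had 7 to 8 for Dox (6201 to 6323) and 8 for the mix (2504 to 2810). Leaving out an LSK compound array leaves 1 in that group and is not counted here. Without array 2 the Relb difference in LSK compound was 0.37. The replicate number as a block gave 7, 4, 4, 9, 4, 5, 9, 8 and 8 members in the same order. Limma then called 7886, 5141, 2954, 5421, 4682, 7717, 5106, 6488 and 2624 genes. The block lost Tnfaip3 in AML control against LSK control (limma adjusted p = 0.0603). It changed no other call. Over 19 same-numbered pairs the deviations from group means correlated at -0.06 to 0.10. Over the 81 member differences and all settings together, 1379 results kept their call and direction, 60 lost their call, 17 gained one and 2 reversed. Of those lost, 37 were with all 18 arrays and 19 with 1 array left out. Birc3 in AML control against LSK control passed under quantile normalization, the stricter filter, flooring of dim values and a trended prior (limma adjusted p = 0.0277 to 0.0482). In the same comparison Tnfaip3 lost its call under quantile normalization (limma adjusted p = 0.0591). Nfkb2 lost its call there with each array centred on its median (0.0524). In the fits of only the groups compared, Nfkbiz in AML compound lost its call (0.0618) and Nfkb2 in LSK Dox gained one (0.0467). Traf1 lay near the filter level in 4 groups, which limits how low a change could be seen.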
